A study of Mus musculus with 12 samples.

Results

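Liver RNA was examined for the genes that make, crosslink and degrade the collagen matrix. A gene belonged to the set if its symbol was that of a collagen chain, a lysyl oxidase (Lox, Loxl1 to Loxl4), a numbered matrix metalloproteinase (Mmp), a tissue inhibitor of metalloproteinases (Timp) or a numbered Adamts protease. The rule found 68 members among the 15140 genes of the deposited count table. They were 11 fibrillar collagen genes, 7 of basement membranes, 19 other collagens, 5 lysyl oxidases, 11 matrix metalloproteinases, 3 Timps and 12 Adamts proteases. Another 25 symbols of the mouse annotation that match the rule, among them Mmp3, Mmp7, Mmp8 and Timp4, were not analysed here.

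The libraries came from polyA-selected liver RNA of male mice. The KO group (n = 6) was Phb1adipo-/-, with prohibitin 1, a scaffold protein of the inner mitochondrial membrane, deleted in adipocytes, and the WT group (n = 6) was wild-type. All were given a high-fat diet with 60% of kcal from fat, begun at 7 to 8 weeks of age and fed for 3 months. The deletion is in fat cells, so the liver libraries do not test it, and neither the Cre line nor the origin of the WT mice is stated in the labels. Replicates are numbered in the titles and nothing ties a library to an animal or a preparation day, so each p-value rests on the spread among the libraries of a group.

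Fibrillar collagens form the banded fibres of scar tissue, with the heterotrimer of Col1a1 and Col1a2 and the homotrimer of Col3a1 as the main ones in liver. Network-forming type IV collagens and the multiplexins Col15a1 and Col18a1 belong to basement membranes. Lysyl oxidases oxidise lysines so that fibres become crosslinked, matrix metalloproteinases and Adamts proteases cut collagens and proteoglycans, and Timps block these proteases. In the steatotic liver, activated hepatic stellate cells are known as the main source of fibrillar collagen, and hepatocytes are known to make Col18a1.

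No member passed the test between KO and WT livers. Of the 68 members, 67 were tested, and 0 reached an adjusted p under 0.05 (edgeR quasi-likelihood test, Benjamini-Hochberg adjustment over all 15000 genes tested), against 396 or 2.64% of all genes tested, with 1.15% higher and 1.49% lower in KO. At an unadjusted p under 0.05 there were 12 members, 3 higher and 9 lower in KO, which is 17.9% against 21.2% of all genes (10.7% higher and 10.6% lower). In no member did the 6 KO libraries lie wholly above or below the 6 WT libraries, a separation that 380 genes or 2.53% of all genes showed. The log2 fold change (KO minus WT, here and below) was below 0 for 37 members and above 0 for 30, with a median of -0.06, beside 0.0031 over all genes. These are bulk samples, in which fewer cells of a type and less RNA per cell cannot be told apart.

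Members of each class are described by their direction. Of the fibrillar collagens, 9 of 11 had a log2 fold change below 0 and the median was -0.74. Among the basement membrane collagens 6 of 7 were above 0, with a median of 0.14. The other collagens had 13 of 18 below 0 and a median of -0.18. Medians were 0.04 for the lysyl oxidases, -0.08 for the matrix metalloproteinases, 0.10 for the Timps and 0.15 for the Adamts proteases. These are descriptions of the lists, without a test. With each library left out in turn, the medians ranged from -0.89 to -0.54 (fibrillar), 0.09 to 0.27 (basement membrane), -0.38 to -0.06 (other collagens), -0.17 to 0.13 (lysyl oxidases), -0.24 to -0.03 (metalloproteinases), 0.02 to 0.19 (Timps) and 0.03 to 0.26 (Adamts).

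**Figure D1:**
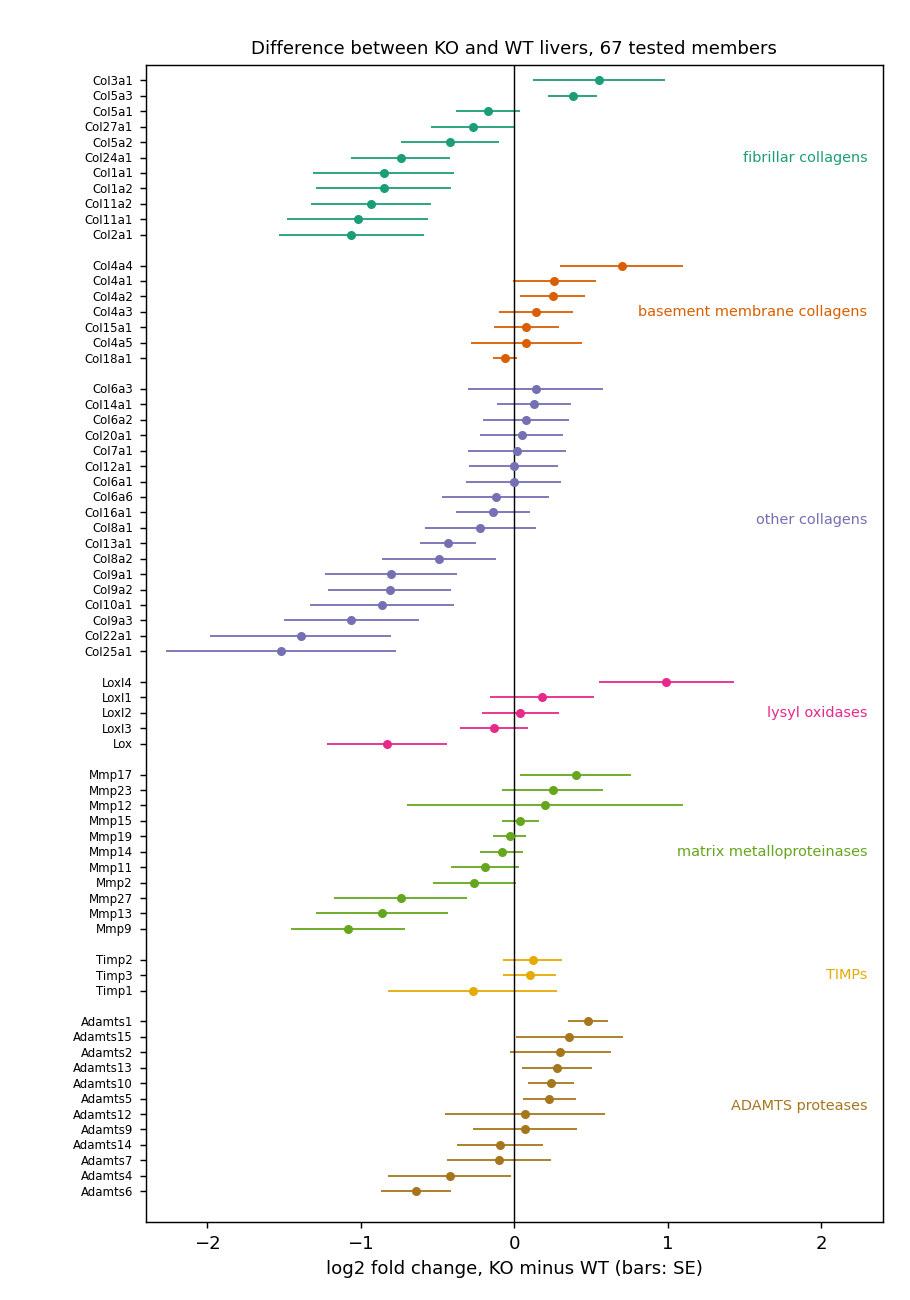
Log2 fold change (KO minus WT, x axis) of the 67 tested members, grouped by class (colours), with bars of 1 standard error (SE). The fibrillar collagens reach from -1.06 for Col2a1 to 0.55 for Col3a1, and no member passed the test.

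Read counts scaled to the library total and TMM factors (CPM) are the level of a gene in a library, and CPM per kb of exon is used to compare genes. Col18a1 was by far the most abundant member, at 159.9 CPM per kb over the 12 libraries. It was followed by Col1a1 at 23.3, Mmp19 at 13.2, Col1a2 at 12.3, Mmp15 at 11.1, Col5a3 at 9.53 and Col14a1 at 6.72 CPM per kb. Mmp14 (5.27), Timp2 (4.61), Col4a1 (4.30), Col3a1 (4.21) and Col27a1 (4.12) came next, and neighbours in this last run lie within the spread of the libraries. The lowest were Col6a5 (0.0310), which the filter on low counts removed from the test, and Col25a1 (0.0353 CPM per kb). Col3a1, a main collagen of fibrotic liver, was thus on average below Col5a3 and Col14a1 by this measure. The length is that of all annotated exons of a gene merged (9816 bases for Col3a1, 7013 for Col14a1), and distances between genes depend on it. Without the length, mean CPM was 49.2 in KO and 33.5 in WT for Col3a1 and 49.3 and 45.0 for Col14a1.

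Of the 67 tested members, 21 followed either bone-forming or stellate cell markers from library to library. A set of 14 followed genes of bone-forming cells: the fibrillar chains Col1a1, Col1a2, Col2a1, Col5a2, Col11a1 and Col11a2, the cartilage and growth plate chains Col9a1, Col9a2, Col9a3 and Col10a1, Col22a1, Lox, and the proteases Mmp9 and Mmp13. A second set of 7 followed markers of hepatic stellate cells: Col3a1, Col4a1, Col4a2, Col14a1, Loxl1, Timp2 and Adamts10. Each of these 21 had a Pearson r of at least 0.8 with the marker score named, where a score is the mean of the standardised log2 CPM of the markers in a library. Over all libraries, no member reached this with both scores, and the other tested members reached it with neither. Relations were computed for these 2 scores only, so none is given with the other marker lists, and each set is named after the score used. They were computed for members only, so the share of all genes that reach this r is not known.

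For orientation, the sequence upstream of the annotated start is shown for a member of each set, Mmp13 (collagenase 3, known from bone and cartilage) and Col3a1. Both are 160 bases ending at the base before the start, plus strand, from RefSeq (GRCm38.p6), at chr9:7272354-7272513 for Mmp13 and chr1:45311378-45311537 for Col3a1. Capitals mark AACCACA (the core bound by RUNX factors), TGACTCA (the AP-1 site) and TATAAA (the TATA box).
Mmp13: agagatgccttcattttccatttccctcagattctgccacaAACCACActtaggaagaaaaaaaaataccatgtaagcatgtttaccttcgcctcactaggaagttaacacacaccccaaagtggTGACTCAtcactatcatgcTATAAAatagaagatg
Col3a1: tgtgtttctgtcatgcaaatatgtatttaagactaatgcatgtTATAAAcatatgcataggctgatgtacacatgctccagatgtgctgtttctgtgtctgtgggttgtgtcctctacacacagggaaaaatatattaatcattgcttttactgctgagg

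The first bases of the 3 motifs of Mmp13 lie at -119 (AACCACA), -35 (TGACTCA) and -16 (TATAAA) from its start, and that of Col3a1 at -117. A RefSeq window was matched for 46 of the 68 members by symbol. Within 250 bases before the start, on either strand, AACCACA was in 2 of the 46 (Mmp13 and Mmp27) and in 5.08% of 27025 genes. TGACTCA was in 3 members (Col6a1, Mmp12 and Mmp13) and in 5.16% of all genes. TATAAA was in 6 members (Adamts1, Col3a1, Col10a1, Col11a2, Col13a1 and Mmp13) and in 14.3% of all genes. Of the set that followed the bone markers, 7 had a window, and only Mmp13 among them held AACCACA. A match is a run of letters and does not show binding.

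The bone-forming cell list had 13 genes, 12 of them in the table and none a member, and was chosen after the values of the members had been seen, so no test of its relations is given. Its genes include Ibsp (bone sialoprotein), which ran from 2.19 to 10.4 CPM in KO and from 3.54 to 21.1 CPM in WT, and Dmp1 of osteocytes, from 1.11 to 3.54 CPM in KO and from 0.602 to 8.55 CPM in WT. These 2 genes are not markers of liver cells, and their levels were low beside Alb, the hepatocyte albumin gene, at 45717 to 69799 CPM in all 12 libraries. In WT, libraries 4, 5 and 6 had the highest scores (0.85, 0.99 and 1.04) and the score was low in WT libraries 3 and 2 (-0.94 and -0.48). KO libraries lay between -0.73 (library 2) and 0.36 (library 3). The WT group thus held both ends of the score. Summed over the list, the levels were 38.7 to 58.9 CPM in KO and 32.3 to 82.3 CPM in WT, and 11 of its 12 genes had a log2 fold change below 0, with a median of -0.86 and 0 called. The one above 0 was Omd (0.66 ± 0.19), and Alpl and Smpd3, which other tissues are known to express too, were at -0.29 and -0.04.

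Across the 12 libraries the relation of Col1a1 to this score had r = 0.93 (Spearman rho 0.94), and r = 0.91 without the 2 libraries farthest from the median score, WT 5 and WT 6. It was 0.79 within the KO libraries and 0.97 within the WT libraries. Within KO the relation was weaker for Col9a1 (r = 0.67), Lox (0.54) and Col5a2 (0.20), and Col5a2, at 0.81 over all 12 libraries, was at 0.73 without WT 5 and WT 6. With the stellate score, Col5a2 had r = 0.10 over all 12 libraries, 0.81 within KO and -0.30 within WT. Col11a2, which pairs with type II collagen in cartilage, had the highest r of all members, 0.97 (rho 0.98), and Mmp13 had r = 0.94 (rho 0.97). Col3a1, in contrast, had r = -0.07 (rho 0.06) with the bone score over all 12 libraries, with -0.40 within KO and 0.44 within WT. All 14 members of the set had a log2 fold change below 0, with a median of -0.86, a direction that follows from the score's own. The other 53 tested members had a median of 0.05, with 23 below 0.

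Other marker lists moved with the same libraries, so the pattern is not particular to the bone list. Neutrophil scores were 1.16, 1.19 and 1.18 in WT libraries 4, 5 and 6 and -0.95 in WT library 3. Skeletal muscle scores in these libraries were 0.72, 0.87, 1.79 and -0.99. Skeletal muscle genes (8 of 8 below 0, median -1.13), neutrophil genes (7 of 7 below 0, median -0.71) and cartilage genes (8 of 9 below 0, median -0.33) each had 0 called. Acta1 of skeletal muscle ran from 0.963 to 3.17 CPM in KO and from 1.18 to 10.7 CPM in WT, with WT library 6 the highest. Summed muscle levels were 4.86 to 14.4 CPM in KO and 5.87 to 39.8 CPM in WT, and summed neutrophil levels 9.58 to 21.7 and 10.9 to 34.9 CPM. Of the listed genes, 12 of 13 for bone, 9 of 18 for cartilage, 8 of 10 for muscle and 7 of 10 for neutrophils were in the table. None of those in the table was at 0 in any library. The table holds no gene with a summed count under 15, and listed genes absent from it are not counted here. Whether RNA of such cells entered the liver libraries was not tested.

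**Figure D2:**
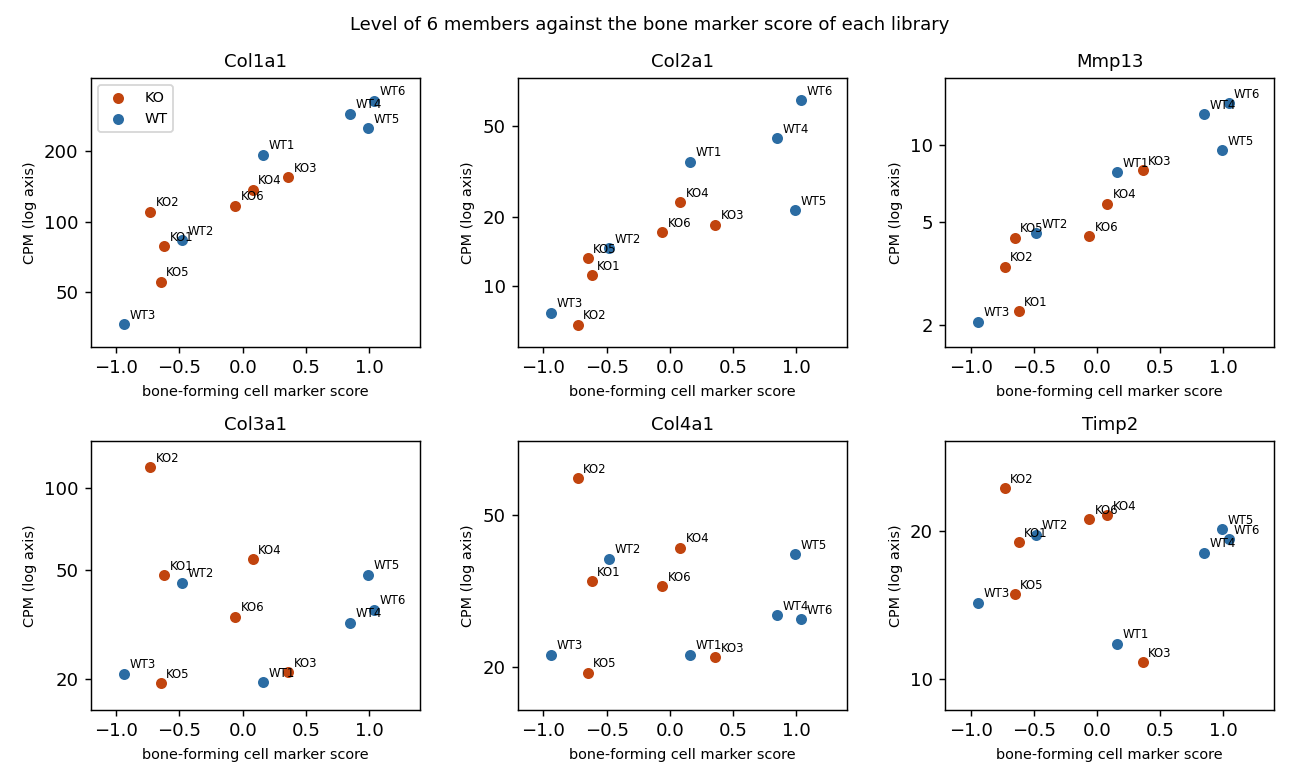
Level of 6 members (CPM, log axis) against the bone-forming cell marker score of each of the 12 libraries (x axis; mean standardised log2 CPM of 12 genes), KO in orange and WT in blue. Col1a1, Col2a1 and Mmp13 are low in WT library 3 and highest in WT library 6, where the score is lowest and highest. Col3a1, Col4a1 and Timp2 do not follow it over the 12 libraries together, with r below 0 within KO and above 0 within WT.

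With the bone score as a covariate in the same edgeR fit, an alternative chosen after seeing the data, the log2 fold change of Col1a1 moved from -0.85 to 0.11 and that of Col1a2 from -0.85 to 0.08. Lox moved from -0.83 to -0.02, Mmp13 from -0.86 to -0.07 and Col2a1 from -1.06 to -0.26. The median of the fibrillar class moved from -0.74 to -0.05. Col3a1 stayed at 0.50 and Loxl4 was at 1.48. No member passed, and the count over all genes was 68 in place of 396. Score and genotype are not independent in these libraries, so the covariate also takes up part of any difference between the groups. For members that follow the score, a move toward 0 was built into this choice, and the cause of their difference was not tested.

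The stellate score ordered the libraries differently. Its 14 markers had a median log2 fold change of 0.05, 8 above and 6 below 0, with 0 called, and summed levels of 219 to 323 CPM in KO and 226 to 328 CPM in WT. Acta2, the actin of activated stellate and smooth muscle cells, had 13.5 CPM in KO library 6 and at most 3.17 CPM in the 11 others (log2 1.62 ± 0.57, adjusted p = 0.131). The highest stellate scores were in KO library 2 (0.72) and KO library 4 (0.64), the lowest in KO library 5 (-0.95), WT library 1 (-0.89) and KO library 3 (-0.80). Loxl1 followed it with r = 0.88 (rho 0.88; two-sided permutation p = 0.000360 and 0.000290, adjusted over the 134 relations of 67 members with 2 scores 0.00322 and 0.00259). Its r was 0.84 without KO 5 and WT 1, the libraries farthest from the median score, and 0.92 within KO and 0.78 within WT. The 134 relations include those with the bone score, whose list was chosen after the values were seen. Their small p-values lower the adjusted values given here and below.

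Col4a1, Col4a2 and Col3a1 followed the stellate score as well. Of the other type IV chains, Col4a4 had r = 0.69, Col4a5 0.67 and Col4a3 -0.39, short of the limit used here. Col4a1 had r = 0.86 (rho 0.92, permutation p = 0.000280 and 6e-05, adjusted 0.00289 and 0.000804). Without KO 5 and WT 1 its r was 0.82, and within KO and WT it was 0.91 and 0.75. Col3a1 had r = 0.81 (rho 0.86, permutation p = 0.000670 and 0.000680, adjusted 0.00528 and 0.00569). It fell to 0.73 without these 2 libraries, with 0.86 within KO and 0.72 within WT. Col1a1, by contrast, had r = -0.10 (rho -0.13, permutation p = 0.748 and 0.684), with 0.33 within KO and -0.35 within WT. The 7 members of this set had a median log2 fold change of 0.24.

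**Figure D3:**
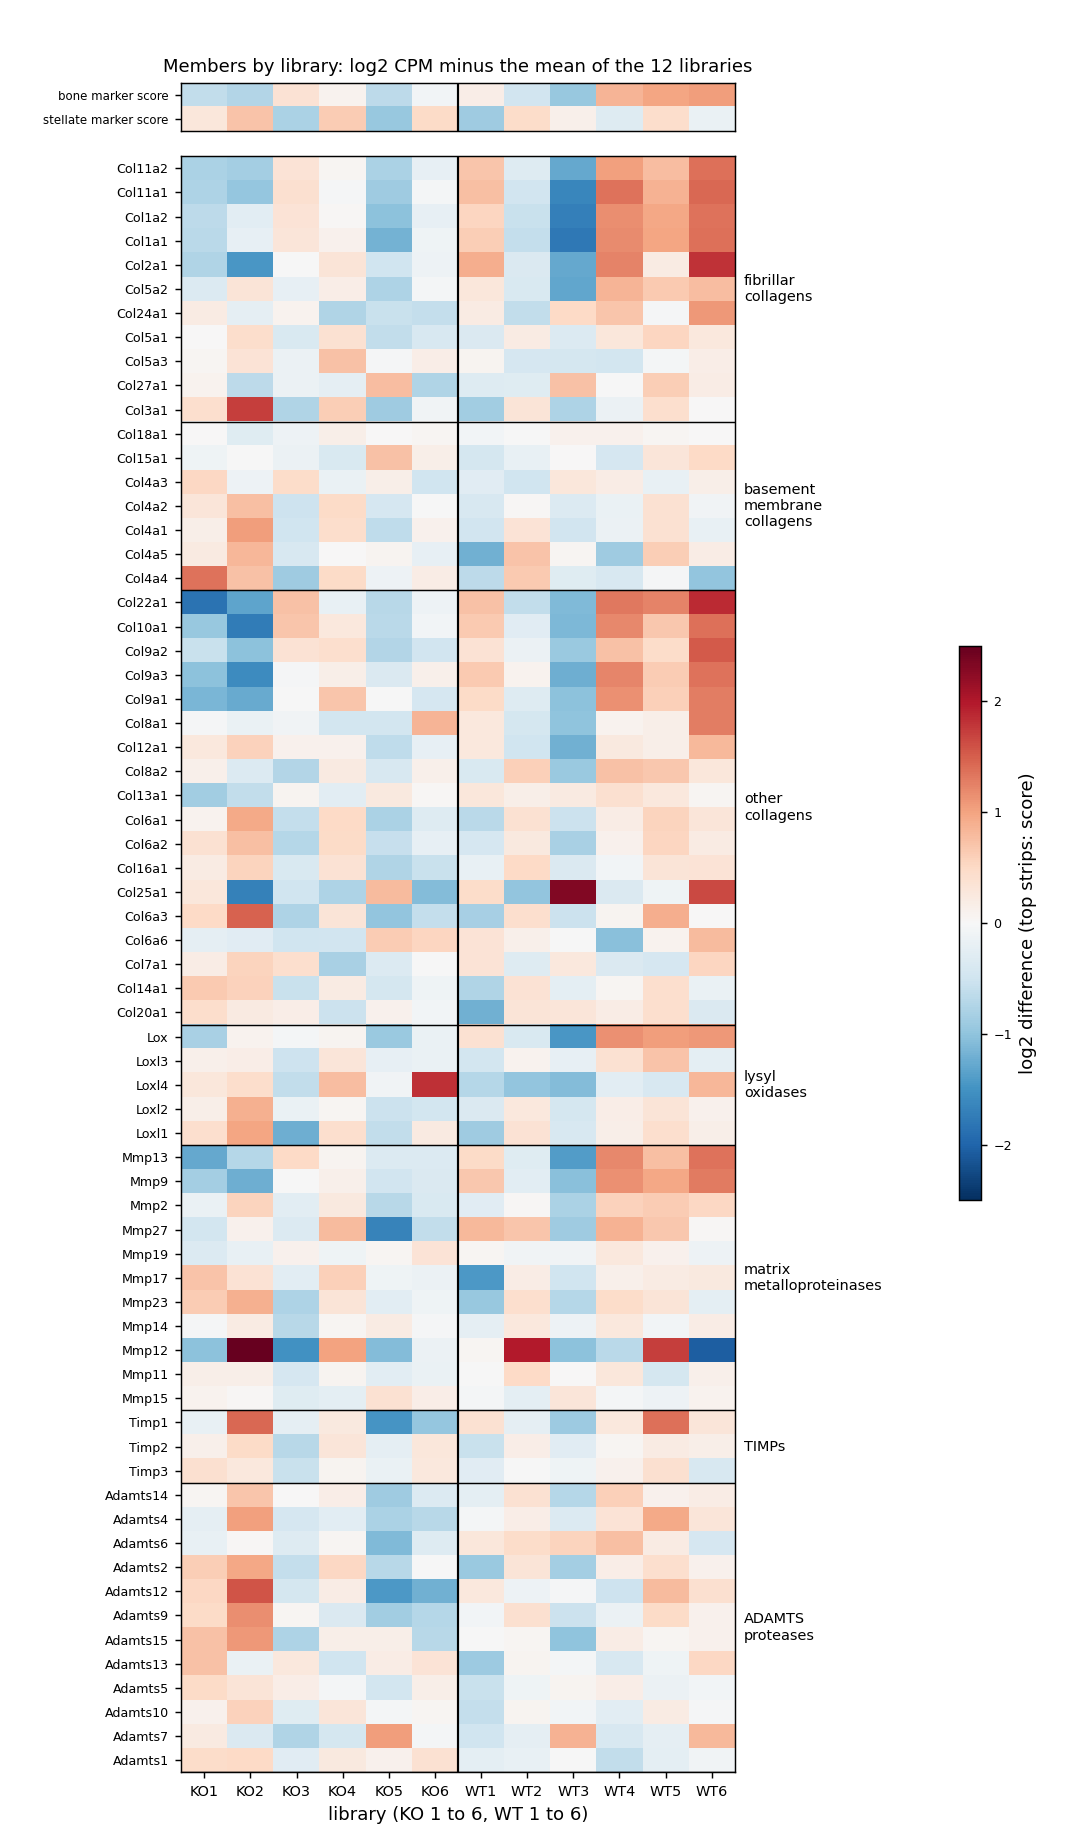
Log2 CPM of each tested member minus its mean over the 12 libraries (colour scale, red higher), with libraries in columns and members in rows by class, ordered within a class by their r with the bone score. The upper strips show the bone and stellate scores; Col11a2, Col11a1, Col1a2, Col1a1, Col22a1, Col10a1, Lox, Mmp13 and Mmp9 are red in WT libraries 4, 5 and 6 and blue in WT library 3.

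Among the fibrillar collagens, the type I chains were the most abundant over the 12 libraries and among the most variable. Within KO, mean CPM per kb was higher for Col5a3 (10.8) than for Col1a2 (8.78). Col1a1 (ENSMUSG00000001506, chr11:94936224-94953042, GRCm38), the alpha 1 chain of type I collagen, ran from 55.6 to 155 CPM in KO (median 114) and from 36.7 to 327 CPM in WT (median 221). WT libraries 1, 4, 5 and 6 lay above every KO library and WT library 3 lay below them all, so the groups overlapped. The log2 fold change was -0.85 ± 0.46 (SE, adjusted p = 0.311). Col1a2 (ENSMUSG00000029661, chr6:4504814-4541544), its partner chain, ran from 62.5 to 162 CPM in KO and from 39.0 to 327 CPM in WT (-0.85 ± 0.44, adjusted p = 0.296). Per kb of exon, Col1a1 stood at 1.69 to 1.99 times Col1a2 in all 12 libraries. The size of this ratio rests on the merged exon lengths (6563 and 12426 bases). In CPM both chains averaged 109 in KO and 196 in WT. The chains of the heterotrimer thus kept nearly the same ratio. Their level moved by 8.92-fold (Col1a1) and 8.39-fold (Col1a2) between the lowest and the highest library.

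Col3a1 did not move with type I. Col3a1 (ENSMUSG00000026043, chr1:45311538-45349706) ran from 19.2 to 119 CPM in KO (median 40.7) and from 19.4 to 48.0 CPM in WT (median 33.9). KO library 2 stood above all others at 119 CPM, and the next was KO library 4 at 54.7 CPM. Its log2 fold change was 0.55 ± 0.43 (adjusted p = 0.492) and was 0.08 without KO library 2. The ratio of Col1a1 to Col3a1 per kb went from 1.39 in KO library 2 to 14.9 in WT library 1, with medians of 4.04 in KO and 10.6 in WT.

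The cartilage-type fibrillar chains were present at lower levels. Col2a1 (ENSMUSG00000022483, chr15:97975602-98004695), the main collagen of cartilage, ran from 6.74 to 23.3 CPM in KO (median 15.2) and from 7.62 to 65.3 CPM in WT (median 28.2). WT libraries 1, 4 and 6 lay above every KO library (log2 -1.06 ± 0.47, adjusted p = 0.219). Col11a1 (3.32 to 8.79 CPM in KO, 2.08 to 18.1 in WT) and Col11a2 (3.75 to 8.67 in KO, 2.78 to 18.1 in WT), chains of the same fibres, had log2 fold changes of -1.02 ± 0.46 and -0.93 ± 0.39. In both genes WT libraries 1, 4, 5 and 6 were above and WT library 3 below all KO libraries.

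The remaining fibrillar members did not pass either. Col5a3 (ENSMUSG00000004098, chr9:20770050-20815067), a chain of type V collagen, which sets fibre diameter, had the second smallest p of the members above 0. It ran from 57.2 to 105 CPM in KO and from 46.2 to 70.7 CPM in WT. KO libraries 2, 4 and 6 lay above all WT libraries and WT libraries 2, 3 and 4 below all KO libraries (log2 0.38 ± 0.16, adjusted p = 0.186). Col24a1, a low fibrillar chain known from bone, ran from 0.434 to 0.947 CPM in KO and from 0.486 to 1.82 CPM in WT (-0.74 ± 0.32, adjusted p = 0.200). Col5a1, Col5a2 and Col27a1 had log2 fold changes of -0.17, -0.42 and -0.27. Summed over the 11 genes, the fibrillar level was 435 ± 83.7 CPM in KO and 618 ± 274 CPM in WT (SD, n = 6 each), with 254 CPM in WT library 3 and 949.5 CPM in WT library 6.

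Among basement membrane collagens, Col18a1 was steady and the type IV chains varied between libraries. Col18a1 (ENSMUSG00000001435, chr10:77052178-77166548), the precursor of endostatin, ran from 905 to 1245 CPM in KO and from 1060 to 1212 CPM in WT. The highest library was 1.38 times the lowest, and the log2 fold change was -0.06 ± 0.08 (adjusted p = 0.723). Col4a1 (19.4 to 62.2 CPM in KO, 21.6 to 39.4 in WT) and Col4a2 (13.7 to 32.9 in KO, 14.9 to 25.7 in WT), partner chains of the common type IV network, had log2 fold changes of 0.26 ± 0.27 and 0.25 ± 0.21. In both, KO libraries 2 and 4 were above and KO libraries 3 and 5 below all WT libraries, and Col4a1 was at 0.02 without KO library 2. Their ratio per kb was 1.18 to 1.70 in all libraries. The genes lie head to head with 22 shared bases of exon, so reads there are uncertain without strand.

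The minor type IV chains were near the limit of what these counts show. Col4a4, a chain of the kidney-type network, ran from 0.369 to 2.12 CPM in KO and from 0.338 to 1.28 CPM in WT. KO libraries 1 and 2 lay above all WT libraries (log2 0.70 ± 0.40, adjusted p = 0.328), and without KO library 1 the value was 0.41. Its partners Col4a3 and Col4a5 were at 0.14 ± 0.24 and 0.08 ± 0.36, and Col15a1, the other multiplexin, at 0.08 ± 0.21. Col4a3 also overlaps another gene of the table.

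Of the other collagens, Col14a1, a fibre-associated collagen, was the most abundant at 30.7 to 70.8 CPM in KO and 26.9 to 60.5 CPM in WT (log2 0.13 ± 0.24, adjusted p = 0.802). The beaded-filament chain Col6a1 ran from 6.47 to 21.9 CPM in KO and from 7.06 to 16.7 CPM in WT, with a log2 fold change of -0.0024 ± 0.31. KO libraries 1 and 2 of Col14a1 lay above all WT libraries and WT library 1 below all KO libraries, and of Col6a1 KO library 2 lay above and KO library 5 below all WT libraries. Col10a1, made by hypertrophic chondrocytes, ran from 1.28 to 7.41 CPM in KO (median 3.58) and had a WT median of 7.26 CPM (-0.86 ± 0.47, adjusted p = 0.311), with WT libraries 4 and 6 above every KO library. Reads of Col10a1 are uncertain where Nt5dc1 overlaps it.

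The largest differences of the class were in scarce genes. Col9a3, a chain of cartilage type IX collagen, ran from 0.313 to 1.27 CPM in KO and from 0.426 to 3.04 CPM in WT (log2 -1.06 ± 0.44, adjusted p = 0.183). Col22a1, known from tissue junctions such as those of muscle and tendon, ran from 0.139 to 1.32 CPM in KO and from 0.301 to 3.01 CPM in WT (-1.39 ± 0.59, adjusted p = 0.195). In both genes WT libraries 1, 4, 5 and 6 lay above all KO libraries. Col25a1, a membrane collagen, ran from 0.0241 to 0.593 CPM in KO and from 0.102 to 1.88 CPM in WT (-1.52 ± 0.75, adjusted p = 0.262). WT library 3 was its highest library, and without it the value was -0.86. Col13a1, a membrane collagen of cell contacts, had the lowest ratio of highest to lowest library among the tested members of this class (2.48). It ran from 1.75 to 3.88 CPM in KO and from 3.38 to 4.35 CPM in WT. KO libraries 1, 2, 4 and 6 lay below all WT libraries (-0.43 ± 0.18, adjusted p = 0.202).

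Lox and Loxl4 lay at opposite ends of the lysyl oxidases. Lox (ENSMUSG00000024529), the founding enzyme of fibre crosslinking, ran from 1.48 to 3.08 CPM in KO (median 2.68) and from 1.00 to 6.53 CPM in WT (median 4.97). WT libraries 1, 4, 5 and 6 were above every KO library and WT library 3 below them all, as in Col1a1 (log2 -0.83 ± 0.39, adjusted p = 0.245). Loxl4 (ENSMUSG00000025185, chr19:42593982-42612813) ran from 1.14 to 6.70 CPM in KO (median 2.37) and from 0.803 to 3.28 CPM in WT (median 1.21). KO library 6 was the highest and WT library 6 the second highest, and WT libraries 1, 2 and 3 lay below all KO libraries. Its log2 fold change was 0.99 ± 0.44 (adjusted p = 0.217), 0.54 without KO library 6 and 1.38 without WT library 6.

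The other lysyl oxidases were close to 0. Loxl1, which acts on elastic fibres, ran from 1.29 to 6.31 CPM in KO and from 1.64 to 4.23 CPM in WT (log2 0.18 ± 0.34). Loxl2, which crosslinks collagen in fibrotic tissue, was at 0.04 ± 0.25 and Loxl3 at -0.13 ± 0.22. None of the 3 kept 1 sign under all alternatives, and Loxl3 shares exon bases with Htra2.

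Among the matrix metalloproteinases, the members with the highest level per kb were steady and those of bone and inflammatory cells were not. Mmp19 (36.6 to 58.4 CPM in KO, 42.4 to 55.1 in WT), Mmp15 (48.2 to 77.8 in KO, 50.1 to 73.2 in WT) and Mmp14 (19.2 to 35.8 in KO, 26.3 to 37.3 in WT) had log2 fold changes of -0.03 ± 0.11, 0.04 ± 0.12 and -0.08 ± 0.14. Mmp14 and Mmp15 are membrane-anchored enzymes, and Mmp14 activates pro-Mmp2. The sign of all 3 changed with a library left out, and Mmp19 shares exon bases with Tmem198b. Mmp2 itself, the gelatinase of stromal cells, ran from 3.21 to 7.80 CPM in KO and from 3.01 to 8.18 CPM in WT (-0.26 ± 0.27).

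Mmp9 (ENSMUSG00000017737, chr2:164940780-164955850), the gelatinase of neutrophils and osteoclasts, had the second smallest p of all members. It ran from 2.50 to 6.48 CPM in KO (median 4.40) and from 2.83 to 14.7 CPM in WT (median 10.6). WT libraries 1, 4, 5 and 6 lay above every KO library, while WT libraries 2 and 3 lay among them. The log2 fold change was -1.08 ± 0.37 (adjusted p = 0.127). The call depended on the tool: DESeq2 gave -1.08 (adjusted p = 0.0315), in a test that called 8.02% of all genes, and edgeR without WT library 3 gave -1.27 (adjusted p = 0.0461, 2.08% of all genes called). In the authors' deposited table Mmp9 was the only member with an adjusted p under 0.05 (log2 -1.07, SE 0.34, adjusted p = 0.0381), against 5.58% of the genes given an adjusted p there. Its r with the bone score was 0.94, and with the score as a covariate its log2 fold change was -0.37 (edgeR adjusted p = 0.267). A move toward 0 follows from that relation.

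Mmp13 (ENSMUSG00000050578, chr9:7272514-7283331), whose upstream sequence is shown above, ran from 2.26 to 7.96 CPM in KO (median 4.40) and from 2.06 to 14.5 CPM in WT (median 8.69). WT libraries 4, 5 and 6 were above every KO library and WT library 3 below (log2 -0.86 ± 0.43, adjusted p = 0.268). Mmp27, a scarce stromelysin-like enzyme, ran from 0.162 to 1.33 CPM in KO and from 0.351 to 1.41 CPM in WT (-0.74 ± 0.43, adjusted p = 0.338). Mmp12, the macrophage elastase, was named after its values were seen because it varied most in this class, with 11.3 CPM in KO library 2 and 0.304 CPM in WT library 6, a 37.3-fold range with a log2 fold change of 0.20 ± 0.90.

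The Timps did not differ beyond their spread. Timp1 (ENSMUSG00000001131, chrX:20870166-20874735), the inducible inhibitor often measured in liver fibrosis, was scarce at 0.135 to 1.68 CPM in KO and 0.251 to 1.60 CPM in WT. KO library 2 and WT library 5 were its highest libraries, and the log2 fold change of -0.27 ± 0.55 (adjusted p = 0.819) was 0.12 without WT library 5 and -0.91 without KO library 2. Timp2, which binds both Mmp2 and Mmp14, ran from 10.8 to 24.5 CPM in KO and from 11.8 to 20.2 CPM in WT (0.12 ± 0.19). Timp3, the matrix-bound inhibitor of Adamts proteases, ran from 5.19 to 10.1 CPM in KO and from 5.78 to 10.2 CPM in WT (0.10 ± 0.17) and overlaps Syn3 on the other strand.

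Adamts1 (ENSMUSG00000022893, chr16:85793827-85803113), a protease of proteoglycans such as versican and aggrecan, had the smallest p of all members. It ran from 11.0 to 18.8 CPM in KO (median 16.6) and from 8.69 to 13.3 CPM in WT (median 11.5). In KO, 5 of 6 libraries lay above all WT libraries, and KO library 3 lay among them. The log2 fold change was 0.48 ± 0.13, a 1.39-fold difference (edgeR adjusted p = 0.0710). It passed with DESeq2 (0.47, adjusted p = 0.0197), with limma-voom and library weights (0.52, adjusted p = 0.0442, in a test that called 5.93% of all genes) and with edgeR without KO library 3 (0.55, adjusted p = 0.0304, 2.44% of all genes called). Without any other single library its adjusted p was above 0.05, and the log2 fold change stayed between 0.41 and 0.55 over the 12 libraries left out in turn.

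Adamts6, an enzyme of microfibril remodelling, pointed the other way. It ran from 0.890 to 2.11 CPM in KO and from 1.49 to 3.47 CPM in WT, and 5 of 6 WT libraries lay above all KO libraries (log2 -0.64 ± 0.23, adjusted p = 0.139). Adamts7, which cuts Comp, stood high in 3 libraries of both genotypes, at 21.6 CPM in KO library 5, 19.3 in WT library 3 and 18.4 in WT library 6 and at most 12.2 CPM in the other libraries (-0.10 ± 0.34). Part of its exons overlaps Tbc1d2b. Adamts13, the protease of von Willebrand factor made by stellate cells, ran from 5.07 to 12.1 CPM in KO and from 3.82 to 10.3 CPM in WT (0.28 ± 0.23), and Adamts10, of the microfibrils, was at 0.24 ± 0.15.

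**Figure D4:**
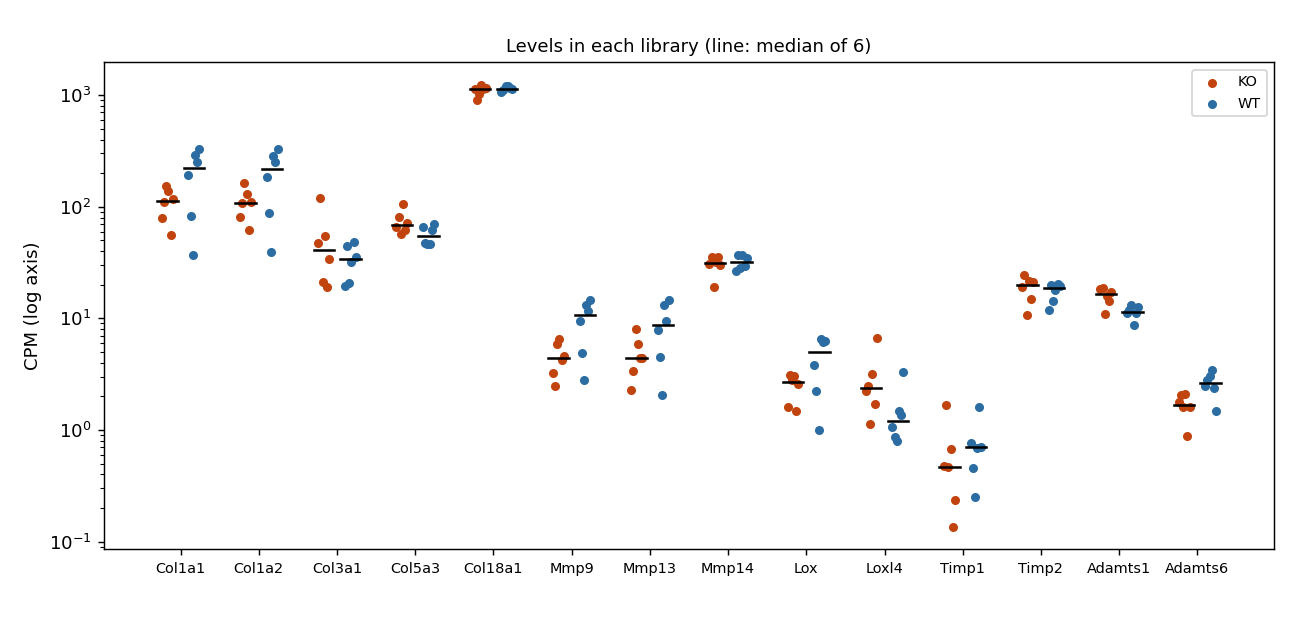
Level (CPM, log axis) of 14 members in each of the 6 KO (orange) and 6 WT (blue) libraries, with the median of each group as a line. The groups overlap in every gene shown; Adamts1 has 5 KO libraries above all WT libraries, and Col1a1, Col1a2, Mmp9 and Lox have 4 WT libraries above all KO libraries.

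Genes that process or accompany collagens gave no calls either. Over 5 lists, 97 of 105 genes were tested, 0 passed, 56 lay above and 41 below 0, and the median was 0.05. For collagen folding, processing and crosslinking (23 tested, median 0.07), the smallest p values were those of Mia3, which loads procollagen into transport carriers (-0.42 ± 0.13, adjusted p = 0.0969), the lysyl hydroxylase Plod3 (0.24 ± 0.08) and the collagen galactosyltransferase Colgalt1 (-0.32 ± 0.11). The basement membrane and glycoprotein list (37 tested, median 0.06) was led by Fbln2, a matrix fibulin, at 0.77 ± 0.21 (adjusted p = 0.0672), then Ltbp2 (0.66 ± 0.30) and elastin, Eln (0.60 ± 0.27).

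Among the proteoglycans listed (9 tested, median 0.06) Vcan, a large one and a substrate of Adamts1, was at -1.39 ± 0.51 (adjusted p = 0.141), with Aspn at -0.99 ± 0.50 and Ogn at 0.35 ± 0.28. Among collagen receptors (9 tested, median -0.02) Mrc1, Lair1 and Ddr1 were at -0.36 ± 0.12, -0.53 ± 0.22 and 0.50 ± 0.27. Of the protease regulators and other matrix proteases (19 tested, median 0.05), Ctsk, the osteoclast collagenase, was at -0.83 ± 0.37 and Ctsb, a lysosomal protease, at -0.21 ± 0.11.

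Total counts ran from 30348123 to 40828767 per library, and the labels give no batch. The 10 hepatocyte markers were abundant in every library, with a summed level of 78480 to 111186 CPM, and 1 of them was called, Tat, higher in KO (0.80 ± 0.14, edgeR adjusted p = 0.0176). Of the other cell types a liver sample can hold, 3 of 14 macrophage markers were called, all lower in KO (Adgre1, Cd5l and Vsig4). Of all genes tested, 1.49% were called lower. In the macrophage list 11 markers lay below 0 and 3 above, Gpnmb (1.79 ± 1.13), Ccr2 (0.18 ± 0.44) and Trem2 (0.16 ± 0.61). The list median was -0.56, with summed levels of 187 to 367 CPM in KO and 320.0 to 502 CPM in WT. No marker was called for sinusoidal endothelium (median -0.10), smooth muscle (0.50), cholangiocytes (0.40), mesothelium (0.25), adipocytes (0.54), osteoclasts (-0.29) or erythroid cells (0.30). The smooth muscle median rests on 4 of 8 listed genes. That of adipocytes rests on 2 of 6, Cfd (1.02 ± 0.91) and Car3 (0.06 ± 0.13). The part of these cell types in the members' values was not tested.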

How the data were processed

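The authors deposited raw read counts, whole numbers without normalization. Per the file headers, the table also holds the authors' comparison: a log2 fold change with its SE, a test score, a p-value and adjusted p-value, and a mean of normalized counts (a signal, not used), named as DESeq2 writes them. FastQC, Trimmomatic, HISAT2, SAMtools, featureCounts, DESeq2 and GRCm38 appear, without versions, among the tools and builds listed per the submitters' processing notes. No source used here gives the annotation release or the strand setting, so reads of overlapping genes cannot be told apart.

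The 204 repeated rows of 15344 were left out. Positions and exon lengths came from GENCODE M21 (GRCm38), matched by gene ID for all 68 members. The exon length of a gene is that of its annotated exons merged over transcripts. No library looked like a duplicate: over the 30 same-group pairs, chi-square divided by its degrees of freedom was 38.49 to 245.29.

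Counts were tested with edgeR 4.0.16 in R 4.3.3 (robust quasi-likelihood F test, TMM, filterByExpr, two-sided, Benjamini-Hochberg over 15000 genes, threshold 0.05). SE is the absolute log2 fold change divided by the square root of F. The test was checked on simulated data. Alternatives were DESeq2 1.42.0, limma 3.58.1 voom with and without library weights, RLE factors, total counts only, no filter, a filter of 1 CPM in 6 libraries, each library left out, and the replicate number as a block; the bone score as a covariate was added after seeing the data. Permutation tests of relations used 100000 resamples; scores used log2 CPM with a prior count of 2. Named were, per class, the 3 members highest per kb and the 3 with the smallest p, those with an absolute log2 fold change of at least 1, and Col1a1, Col1a2, Col3a1, Lox and Timp1. Col4a3, Col4a5, Col15a1, Col5a1, Col5a2, Col27a1, Col9a1, Col9a2, Mmp2, Mmp12 and Col6a5 were named after their values were seen. Values of 2 genes of the lists are not reported here. Members and lists were chosen with earlier results of these data known, and the bone, cartilage, osteoclast and erythroid lists after the values were seen.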

Additional observations from a re-analysis of the deposited data

Results flagged for a closer look

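In 2 of the 76 groups of 6 libraries examined for the 38 named members, 1 library stood apart from the other 5; chance alone gives about 3.80 such groups. Mmp14 was at 19.2 CPM in KO library 3 and at 30.3 to 35.8 CPM in the other KO libraries, a gap of 0.732 of the group's range on the log2 scale (the limit for 6 libraries is 0.625). Without that library its log2 fold change was 0.01 in place of -0.08. Adamts6 was at 0.890 CPM in KO library 5 and at 1.59 to 2.11 CPM in the others, a gap of 0.669.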

How the results depend on the processing

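Over all genes, the 396 calls became 257 with total counts only, 1214 with DESeq2, 889 with limma-voom and library weights and 68 with the bone score as a covariate, and ranged from 25 (without WT library 4) to 700 (without WT library 6) with a library left out. WT library 2 (46), KO library 6 (86), WT library 5 (89) and KO library 2 (235) each moved it by more than 1.5 times as well. Calls among members were 2 with DESeq2 (Adamts1 and Mmp9), 1 with limma-voom and library weights (Adamts1), 1 with the replicate block (Loxl4, 0.93, edgeR adjusted p = 0.0440) and 0 to 1 with a library left out. The fibrillar median was -0.05 with the bone score and -0.89 to -0.54 with a library left out. The median over all genes was 0.0031, 0.00071 and -0.01 with TMM, RLE and total counts.

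Of 792 values of named members under alternatives, 752 kept direction and stayed short of the threshold, 6 kept direction and passed it, and 34, from 12 members, changed sign. With the bone score these were Col1a1 (0.11), Col1a2 (0.08), Col6a1 (0.08), Mmp15 (-0.04), Mmp19 (0.04) and Timp1 (0.12). Others were Col6a1 with total counts (0.0026), Loxl1 with voom weights (-0.01), and Loxl2 with voom (-0.00098), voom weights (-0.07) and the replicate block (-0.01). With a library left out, the log2 fold change ranged from -0.42 to 0.10 for Adamts7, -0.0017 to 0.23 for Col14a1, -0.26 to 0.11 for Col6a1, -0.05 to 0.34 for Loxl1, -0.21 to 0.13 for Loxl2, -0.22 to 0.04 for Loxl3, -0.14 to 0.01 for Mmp14, -0.05 to 0.11 for Mmp15, -0.12 to 0.03 for Mmp19 and -0.91 to 0.12 for Timp1. The cause of these moves was not tested.

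Same-numbered KO and WT libraries had correlations of -0.0343, 0.362, 0.1, 0.205, -0.204 and 0.144 in their deviations from the group means. KO libraries 2, 4 and 6 and WT libraries 2 and 4 were closest to their own number, and the others were not. These values do not decide whether the numbers pair the samples. The replicate block gave 374 calls over all genes. For members under 1 CPM the depth limits what can be seen, and a difference there may be missed.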
